A study of Mus musculus with 24 samples.

Results

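Macrophages that lack both liver X receptors were given acetylated low-density lipoprotein (AcLDL), and their transcripts were compared with those of vehicle-treated macrophages from the same mice. The comparison used 6 of the 24 libraries of the study: DKO AcLDL 1, 2 and 3 against DKO Veh 1, 2 and 3, paired by replicate number, across all 16026 genes that passed a filter on low values (at least 10 normalized counts in at least 3 of the 12 vehicle and AcLDL libraries of both genotypes). DKO are mice labelled as double knockouts of LXRalpha and LXRbeta, and every DKO library, vehicle included, carries that genotype. The comparison groups called LXR positive came from C57BL/6J mice, and the strain label of both genotypes is C57BL/6J. The sources used here do not say whether the 2 genotypes were littermates. Mice were 8 to 12 weeks old. Bone marrow cells were grown into macrophages in DMEM with 20% fetal bovine serum and 30% medium conditioned by L929 cells, so all groups, vehicle included, were grown with serum. The medium was renewed after 4 days and treatment began on day 5 for vehicle, where it lasted 17 hours. The AcLDL dose was 50 µg/ml, and the sources used here do not give its day or duration. Per the series' design text, 6 mice were each used for all 4 treatments, so that each of the 3 DKO mice supplied 1 vehicle and 1 AcLDL library.

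AcLDL is a chemically modified lipoprotein that macrophages take up through scavenger receptors and break down in lysosomes, which loads the cell with cholesterol. Cells sense sterol in 2 main ways. In the endoplasmic reticulum, cholesterol and oxysterols hold the SREBP2 precursor (gene Srebf2) in place through SCAP and the INSIG proteins, and when sterol is scarce SREBP2 is released and switches on the genes of cholesterol synthesis and uptake. In the nucleus, oxysterols and the sterol intermediate desmosterol bind LXRalpha (Nr1h3) and LXRbeta (Nr1h2), which switch on cholesterol export (Abca1, Abcg1), the ubiquitin ligase Mylip and fatty acid synthesis (Srebf1, Scd1, Scd2, Fasn). In DKO macrophages the nuclear arm lacks its receptors.

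The libraries held 20659071 to 27189081 reads for DKO vehicle and 15263971 to 18739975 for DKO AcLDL, so that each vehicle library was deeper than each AcLDL library. Reads from the mitochondrial chromosome made up 14.02% to 16.64% of the vehicle and 14.19% to 14.69% of the AcLDL libraries. Transcripts of both deleted genes were counted in DKO: Nr1h2 was at 312, 275 and 399 normalized counts with vehicle and 298, 279 and 351 with AcLDL in mice 1, 2 and 3, against 523, 569.7 and 654 in LXR-positive vehicle libraries. Nr1h3 was at 187, 176 and 179 with vehicle and 243, 207 and 217 with AcLDL in DKO, against 114, 176 and 114 in LXR-positive vehicle libraries. Counts summed over a gene do not say which exons they cover, so these values do not check the deletions. The 12 macrophage markers summed to 196097 to 231696 normalized counts with vehicle and 152615 to 201603 with AcLDL in DKO. Of these, Lyz2 held most of the sum in each library, at 107166, 120163 and 125824 with vehicle and 87954, 81053 and 107775 with AcLDL. Lyz2 shares 32.8% of its 31-base words with Lyz1. Osteoclast, stromal, granulocyte, dendritic, lymphocyte, mast cell and erythroid or megakaryocyte markers summed to far less, with Mcpt4, Tpsb2, Fcer1a and Calcr at 0 in all 6 libraries. Mouse 3 stood apart in stromal markers, which summed to 446 with vehicle and 472 with AcLDL in that mouse, against 2051 to 4451 in the other 4 libraries. Erythroid and megakaryocyte markers summed to 334 to 492 with vehicle and 633 to 733 with AcLDL, and 1 of them, Pf4, held most of that sum. In bulk samples like these, fewer cells of a type and less RNA per cell cannot be told apart.

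AcLDL changed 38 of the 16026 genes in DKO macrophages (0.237%) at an adjusted p under 0.05 in a limma fit with the mouse as a block: 33 were lower (0.206% of genes tested) and 5 were higher (0.0312%). At an unadjusted p under 0.05 there were 1677 genes (10.5%). The balance of directions depended on the tool and scaling: edgeR with the block also called 33 lower and 5 higher, DESeq2 with the block 184 lower and 103 higher, and limma after quantile normalization 34 lower and 12 higher. Of the 33 lower genes, 14 belong to cholesterol synthesis, sterol sensing and sterol uptake, and 1 is the fatty acid desaturase Scd2. The other 18 include genes of interferon response, antigen presentation and macrophage surface proteins as well as pseudogenes. The 5 higher genes were Angptl4, Fos, Plin2, Dot1l and Slc27a1. All 38 moved the same way in each of the 3 mice. In 28 of the 38 the 3 AcLDL libraries lay entirely on 1 side of the 3 vehicle libraries, which was so for 1843 of all genes tested (11.5%). Without the replicate block, 20 genes were called (0.125%), 19 of them among the 38. The block decided few calls of the cholesterol genes and many of the others: 13 of the 14 cholesterol genes and 6 of the remaining 24 genes were also called without it. The count of called genes also moved with the mice in the fit: it was 22, 15 and 29 without DKO mouse 1, 2 or 3, and 17, 87 and 25 without LXR-positive mouse 1, 2 or 3, whose libraries enter the shared spread. At least 10 of the 14 cholesterol genes were called in each of these fits. With only the 6 DKO libraries in the fit, and the block kept, limma called 27 genes, 21 of them among the 38. These 21 held 13 of the 14 cholesterol genes. Calls lost in that fit included Mvd, Plin2, Slc27a1, Ifit3, Acod1 and H2-Ab1.

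Genes of cholesterol synthesis, sterol sensing and sterol uptake supplied 14 of the 33 falls in DKO macrophages. Of 33 tested genes of 3 lists (synthesis of squalene from acetyl-CoA, squalene to cholesterol, and sterol sensing and uptake), 14 fell and none rose, which is 42.4% called against 0.237% of all genes, and 29 had a log2 fold change below 0. Their median log2 fold change was -0.99, against 0.00 over all genes tested. Of the 14, 12 are described by name below. In all 14 called genes the 3 AcLDL libraries lay below the 3 vehicle libraries, as they did in 5.67% of all genes tested.

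**Figure D1:**
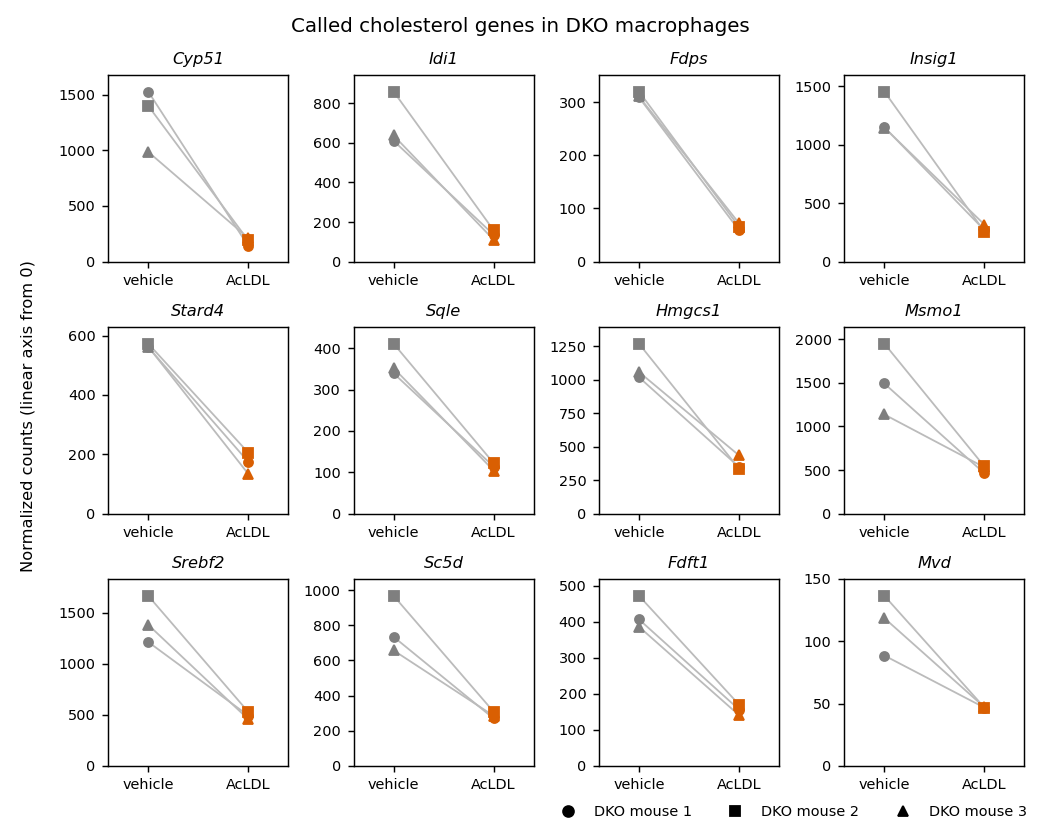
Normalized counts (linear axis from 0) of 12 called cholesterol genes in DKO macrophages with vehicle (grey) and AcLDL (orange); each line joins the 2 libraries of 1 mouse and the marker shape gives the mouse. Every line slopes down, and no AcLDL point reaches the lowest vehicle point of its gene.

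The promoters of 4 of these genes are printed here with their motif matches. They are the 250 bases before the start of transcription in RefSeq (GRCm38.p6), 5′ to 3′ on the gene's own strand. Capitals mark matches, on either strand, to CCAAT (the box bound by NF-Y), GGGCGG (a core bound by Sp1), CACGTG (an E-box) and TCACNCCAC (a core of the sterol regulatory element bound by SREBP). The longer classical SRE-1 sequence, which contains TCACNCCAC, was searched too. Hmgcs1, at chr13:119690101-119690350, plus strand, is shown because it was the single promoter among the fallen cholesterol genes with a match to the sterol element core. Insig1, at chr5:28071162-28071411, plus strand, is shown for its E-box. Srebf2, at chr15:82147019-82147268, plus strand, encodes the factor itself. Idi1, at chr13:8885356-8885605, plus strand, is shown as a gene that fell further and has only the CCAAT and GGGCGG matches.
Hmgcs1: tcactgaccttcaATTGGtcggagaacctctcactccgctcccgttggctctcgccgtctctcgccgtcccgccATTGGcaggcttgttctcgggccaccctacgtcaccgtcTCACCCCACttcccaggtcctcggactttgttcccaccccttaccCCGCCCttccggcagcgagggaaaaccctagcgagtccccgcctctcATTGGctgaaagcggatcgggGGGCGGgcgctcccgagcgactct
Insig1: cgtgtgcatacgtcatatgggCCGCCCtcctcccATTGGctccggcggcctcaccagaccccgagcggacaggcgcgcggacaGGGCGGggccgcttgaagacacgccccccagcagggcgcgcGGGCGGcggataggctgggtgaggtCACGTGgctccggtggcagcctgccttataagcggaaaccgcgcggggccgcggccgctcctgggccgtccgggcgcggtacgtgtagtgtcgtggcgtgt
Srebf2: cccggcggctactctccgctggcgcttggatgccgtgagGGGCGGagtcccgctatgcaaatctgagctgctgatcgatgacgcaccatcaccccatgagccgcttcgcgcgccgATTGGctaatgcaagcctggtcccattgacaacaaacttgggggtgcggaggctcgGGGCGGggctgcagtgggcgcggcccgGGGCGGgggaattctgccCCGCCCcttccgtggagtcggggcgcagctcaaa
Idi1: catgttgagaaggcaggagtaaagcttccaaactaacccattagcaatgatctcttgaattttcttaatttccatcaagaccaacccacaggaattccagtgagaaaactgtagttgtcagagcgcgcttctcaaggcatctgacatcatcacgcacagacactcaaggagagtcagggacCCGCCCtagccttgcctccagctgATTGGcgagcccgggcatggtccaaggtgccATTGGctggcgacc
The Hmgcs1 match to the sterol element core reads TCACCCCAC and lies 137 to 129 bases before the start. A promoter was at hand for 8 of the 14 fallen cholesterol genes, the 4 above and Cyp51, Msmo1, Mvd and Sc5d. All 8 held CCAAT (35.1% of the 13301 promoters of tested genes did) and all 8 held GGGCGG (54% did). CACGTG was in 2 of the 8 (Insig1 and Sc5d), against 7.93% of all promoters, and TCACNCCAC in 1, against 1.01%. The longer SRE-1 sequence was in none of the 8 and in 0.0301% of all promoters. Among the 19 promoters of the 13 other fallen genes that had one, 36.8% held CCAAT and 10.5% held GGGCGG. Over the 27 promoters of all genes called lower, 55.6% held CCAAT and 37% held GGGCGG. The 34 promoters of all tested members of the cholesterol lists, called or not, held CCAAT in 67.6% and GGGCGG in 76.5%. These 34 include the 8 promoters of the fallen genes. CCAAT was in 23 of the 34 and GGGCGG in 26, so neither match was confined to the fallen genes. The uncalled members were not counted apart. These counts describe letters in a window and say nothing of binding.

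In the branch from acetyl-CoA to squalene, 5 of 10 genes fell and all 10 were below 0 (median log2 fold change -1.15). Idi1, which isomerises isopentenyl pyrophosphate, was at 610.5, 859 and 637 normalized counts with vehicle and 136, 158 and 110.2 with AcLDL in mice 1, 2 and 3. Fdps, which makes farnesyl pyrophosphate, went from 309, 319.9 and 311 to 59.0, 65.5 and 72.2. Its vehicle libraries differed little from each other and its AcLDL libraries sat close together. Idi1 fell 5.18-fold (log2 fold change -2.37 ± 0.16, ± SE here and below, limma adjusted p = 0.000537) and Fdps fell 4.74-fold (log2 -2.24 ± 0.13, adjusted p = 0.000259). Hmgcs1, the synthase that makes HMG-CoA, went from 1019.7, 1271 and 1059 to 349, 336 and 435 (log2 -1.58 ± 0.13, limma adjusted p = 0.00144). Fdft1, squalene synthase, went from 406, 472 and 386 to 156, 169.9 and 140.4 (log2 -1.43 ± 0.11, limma adjusted p = 0.00112). The groups of both genes were far apart relative to the spread among mice. Mvd, which makes isopentenyl pyrophosphate, went from 88.5, 136 and 119 to 46.7, 46.8 and 47.0 (log2 -1.25 ± 0.18, limma adjusted p = 0.0428). The Mvd call did not hold without the block (adjusted p = 0.216), nor when any 1 of the 3 DKO mice was left out (adjusted p = 0.13, 0.33 and 0.18). Of the uncalled genes, Acat2, Pmvk, Mvk and Ggps1, had log2 fold changes of -1.04, -0.77, -0.42 and -0.17.

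From squalene to cholesterol, 5 of 12 genes fell and all 12 were below 0 (median -1.14). Cyp51, lanosterol demethylase, went from 1529, 1401 and 986 to 140.1, 190.1 and 211, a 7.18-fold fall (log2 -2.84 ± 0.29, limma adjusted p = 0.00597). Mouse 3 had the lowest Cyp51 count with vehicle and the highest with AcLDL. Sqle, squalene epoxidase, went from 339.6, 411 and 352 to 114, 122 and 104 (log2 -1.68 ± 0.15, limma adjusted p = 0.00255). Msmo1, the methylsterol monooxygenase that follows Cyp51, went from 1491, 1948 and 1137 to 462, 542 and 531 (log2 -1.54 ± 0.14, limma adjusted p = 0.00255). Sc5d, a sterol desaturase, went from 735, 969 and 657 to 269.5, 308 and 285 (log2 -1.43 ± 0.14, limma adjusted p = 0.0044). The AcLDL libraries of Msmo1 and Sc5d varied less between mice than their vehicle libraries. Without mouse 2, Cyp51 and Sc5d missed the threshold (adjusted p = 0.078 and 0.072). Hsd17b7 (-1.29), Lss (-0.99), Nsdhl (-0.68) and Tm7sf2 (-0.56) had negative log2 fold changes that did not pass, and Dhcr7, Lbr and Ebp lay between -0.26 and -0.12. Cyp51 shares 166 exon bases with Akap9 on the opposite strand and Fdft1 shares 774 with Ctsb. The strand setting of the counting is not given, so reads of such pairs cannot be told apart.

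Among sterol sensing and uptake genes, 4 of 11 fell. Insig1, which retains SCAP and SREBP in the endoplasmic reticulum and is itself an SREBP target, went from 1150.3, 1455 and 1147 to 269.5, 256 and 317 (log2 -2.15 ± 0.13, limma adjusted p = 0.000317). Srebf2 itself went from 1215, 1668 and 1384 to 493, 529 and 457 (log2 -1.52 ± 0.12, limma adjusted p = 0.00133). Stard4, a carrier of cholesterol between membranes, went from 561, 573 and 563 to 175, 206 and 134 (log2 -1.74 ± 0.20, limma adjusted p = 0.0123). The 3 vehicle libraries of Stard4 were nearly equal, yet its call did not hold when any 1 of the DKO mice was left out (adjusted p = 0.094, 0.078 and 0.084). The rest of the sensing machinery was not called: Scap (0.46), Insig2 (0.17), Mbtps1 (0.02) and Mbtps2 (-0.04), which encode the SREBP escort, the other INSIG and the 2 proteases that cut SREBP, had the log2 fold changes in brackets. Srebf1 was at 386, 591 and 491 with vehicle and 348, 369 and 285 with AcLDL, and its log2 fold change of -0.54 ± 0.15 did not pass (limma adjusted p = 0.234). In LXR-positive cells Srebf1 had 0.54 (limma adjusted p = 0.116), and the difference between genotypes did not pass (limma adjusted p = 0.592).

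The same lists in LXR-positive macrophages, which share no library with the DKO comparison, had 11 genes lower (1.00% of all genes tested there) and 1 higher (0.537%), with a median log2 fold change of -0.39. Srebf2 had a log2 fold change of -1.52 in DKO and -1.20 in LXR-positive cells, where it went from 1094, 812 and 1010.5 to 392, 405 and 460.1. For Cyp51 it was -2.84 in DKO and -1.41 in LXR-positive (limma adjusted p = 0.0576), and for Insig1 -2.15 and -1.08 (limma adjusted p = 0.0109). The response difference, DKO minus LXR-positive, was below 0 for 30 of the 33 genes (among them Mylip, which had positive log2 fold changes in both genotypes), with a median of -0.59, against 50.6% of all genes tested and a median of 0.00. No cholesterol gene passed the test of that difference (smallest limma adjusted p = 0.41). The vehicle levels also stood apart: Idi1 was at 610.5, 859 and 637 in DKO and 385, 319 and 315 in LXR-positive vehicle libraries, and Cyp51 at 1529, 1401 and 986 and 525, 587 and 567. Their part in the difference in response was not tested.

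The 2 other treatments of DKO macrophages are compared with the same vehicle libraries as AcLDL. With GW3965, a synthetic LXR agonist, at 1 µM, the log2 fold changes of the 12 described genes in DKO ran from -0.38 (Cyp51) to 0.15 (Srebf2), and the lowest limma adjusted p was 0.6. With kdo2-lipid A (KLA), a TLR4 ligand, at 100 ng/ml, 6 of the 14 fell (12.0% of all genes tested fell with KLA), led by Cyp51 (-1.28) and Idi1 (-0.84). Mvd rose with KLA (1.18; 14.6% of all genes rose).

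**Figure D2:**
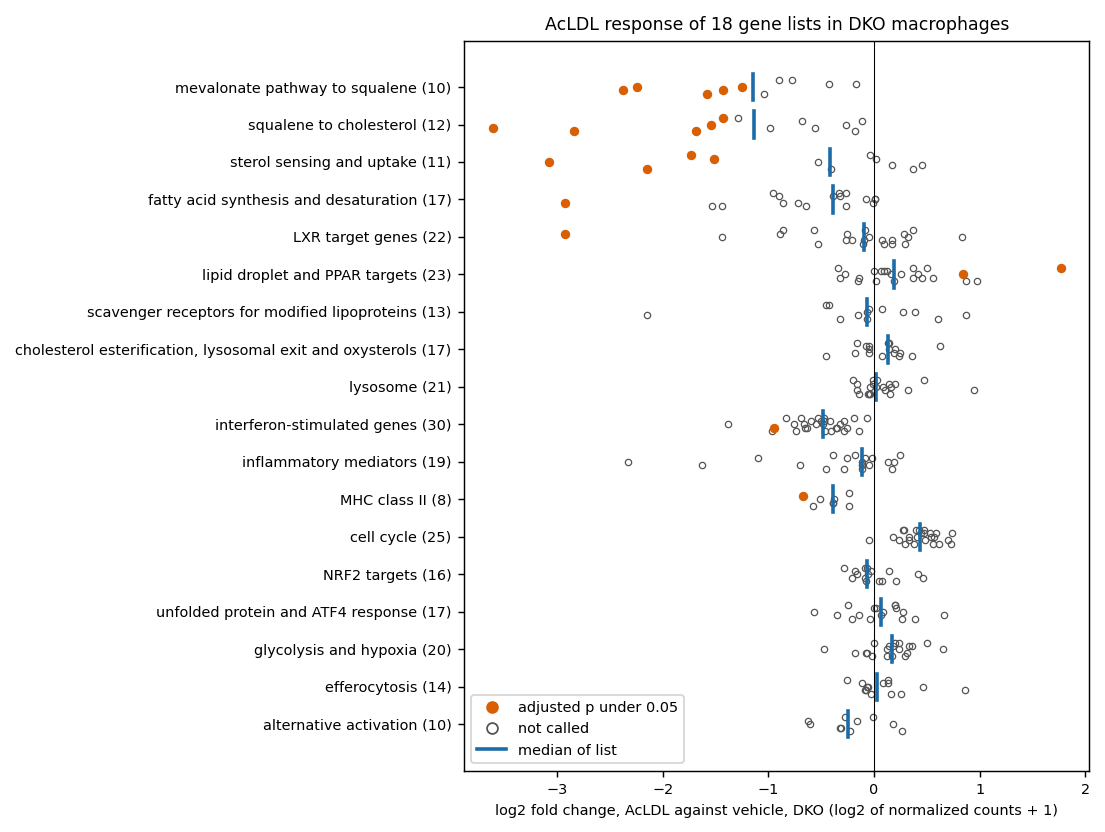
The log2 fold change with AcLDL in DKO macrophages (horizontal axis, log2 of normalized counts + 1) for every tested member of 18 gene lists, with the number tested in brackets. Filled orange points were called and blue bars are list medians: the mevalonate and squalene-to-cholesterol lists have medians of -1.15 and -1.14, and 10 lists have no call.

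Scd2 fell with AcLDL in DKO and rose in LXR-positive macrophages. Scd2 encodes a stearoyl-CoA desaturase that makes monounsaturated fatty acids. In DKO it was at 1618, 2646 and 1344 normalized counts with vehicle and 201, 436 and 147 with AcLDL, a 7.62-fold fall (log2 -2.93 ± 0.14, limma adjusted p = 9.23e-05). In LXR-positive cells it was at 238, 245 and 232 with vehicle and 697, 822 and 535 with AcLDL (log2 1.50, limma adjusted p = 0.00451). The groups did not overlap in either genotype. The difference between the responses was -4.43 on the log2 scale (limma adjusted p = 0.000105). In the authors' deposited table of that difference the log2 value for Scd2 was -4.36. Of 17 tested genes of fatty acid synthesis and desaturation, limma and edgeR with the block called Scd2 alone, and DESeq2 with the block called 4 lower. In limma 11 of the 17 had an unadjusted p under 0.05 and 15 were below 0 (median -0.39). Scd1, a close relative, was at 111, 164 and 32.5 with vehicle and 43.6, 84.2 and 7.09 with AcLDL, lower in each mouse, with groups that overlap. Its log2 fold change of -1.44 ± 0.31 did not pass (limma adjusted p = 0.145). Fasn, fatty acid synthase, had -0.86 ± 0.19 (limma adjusted p = 0.146), and Acaca, which makes malonyl-CoA, -0.72 ± 0.12 (limma adjusted p = 0.0631). In LXR-positive cells Scd1 rose (log2 1.65, limma adjusted p = 0.0421). Acaca had 0.54 there (limma adjusted p = 0.0683) and Fasn -0.07 (limma adjusted p = 0.881). The genotype differences of Scd1, Acaca and Fasn did not pass (limma adjusted p = 0.196, 0.134 and 0.929).

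AcLDL raised the export genes Abca1 and Abcg1 in LXR-positive macrophages and did not change them beyond the test's threshold in DKO. Abca1, which loads cholesterol onto apolipoprotein A-I, was at 14347, 16732 and 14223 with vehicle and 15807, 17787 and 14851 with AcLDL in DKO. Its log2 fold change there was 0.10 ± 0.081 (95% interval -0.09 to 0.28, limma adjusted p = 0.747). In LXR-positive cells it went from 9154, 8698 and 8200.1 to 19263, 20609 and 19101 (log2 1.18, limma adjusted p = 0.000825). In DKO each mouse was a little higher with AcLDL and the groups overlapped, whereas in LXR-positive cells they were far apart. The difference in response was -1.08 (limma adjusted p = 0.0381). Abcg1, which passes cholesterol to high-density lipoprotein, was at 3007, 3341 and 2489 and 4173, 3295 and 3519 in DKO (log2 0.32 ± 0.11, 95% interval 0.07 to 0.57, limma adjusted p = 0.343). In LXR-positive cells it went from 1959, 2005 and 1823 to 6295, 6936 and 5819 (log2 1.72), and the difference was -1.40 (limma adjusted p = 0.0453). The differences of Abca1 and Abcg1 lost their calls when any single mouse was left out, with adjusted p from 0.077 to 0.24. Both genes had higher vehicle counts in DKO than in LXR-positive cells, without overlap. Mylip, a ubiquitin ligase and LXR target, was at 758, 716 and 717 and 917, 849 and 1070.0 in DKO (log2 0.37 ± 0.096, limma adjusted p = 0.199) and its log2 fold change in LXR-positive cells was 1.10. The difference for Mylip did not pass (limma adjusted p = 0.555). Of 22 tested LXR target genes, none rose and Scd2 fell in DKO (median -0.10), and 10 had an unadjusted p under 0.05. edgeR and DESeq2 with the block also called none higher, with 1 and 3 lower. In LXR-positive cells 8 of the 22 rose (median 0.46), against 0.537% of all genes tested.

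**Figure D3:**
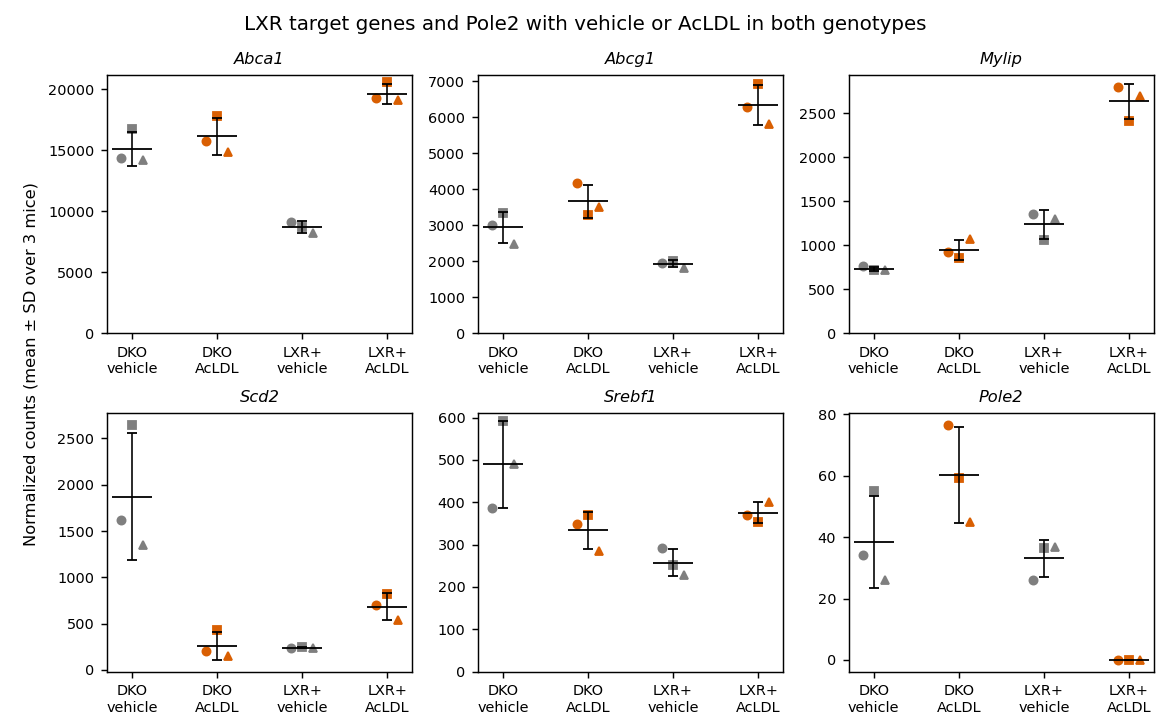
Normalized counts (linear axis) of 5 LXR target genes and Pole2 in the 4 groups, 3 mice each; marker shapes give the mouse number within a genotype, and black bars the mean ± SD. With AcLDL, Abca1, Abcg1 and Mylip reach higher counts in LXR-positive than in DKO cells, Scd2 moves in opposite directions in the 2 genotypes, and Pole2 is at 0 in the 3 LXR-positive AcLDL libraries.

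Of the 5 higher genes, 3 (Angptl4, Plin2 and Slc27a1) handle lipid. In all 5 the 3 AcLDL libraries lay above the 3 vehicle libraries, as they did in 5.83% of all genes tested. Angptl4, a secreted inhibitor of lipoprotein lipase and a target of PPAR receptors, was at 69.7, 63.5 and 85.7 with vehicle and 235, 229 and 287 with AcLDL in DKO. It rose 3.41-fold (log2 1.77 ± 0.16, limma adjusted p = 0.00255), and its log2 fold change in LXR-positive cells was 1.81. Plin2, the main coat protein of lipid droplets in macrophages, went from 4599.8, 3488 and 3639 to 7257, 6273 and 7395 (log2 0.84 ± 0.096, limma adjusted p = 0.0123). Both were also called by limma without the block. Plin2 was not called by edgeR without the block, nor by limma with only the 6 DKO libraries in the fit. Without DKO mouse 2 or 3, or LXR-positive mouse 1, Plin2 missed the threshold (adjusted p = 0.11, 0.073 and 0.056). Of 23 tested lipid droplet and PPAR target genes limma and edgeR with the block called these 2 higher and DESeq2 3, 17 were above 0 and the median was 0.19. Hilpda, a lipid droplet protein (0.97), Cd36, a fatty acid transporter and scavenger receptor (0.87), and Cpt1a, which brings fatty acids into mitochondria (0.56), had positive log2 fold changes that did not pass (limma adjusted p = 0.185, 0.319 and 0.0631). Cd36 was at 15107, 11684 and 6301 with vehicle and 19144, 23560.1 and 15193 with AcLDL, higher in each mouse, and mouse 3 was the lowest in both groups.

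Fos, an immediate early transcription factor, was at 569.8, 567 and 463 with vehicle and 1129, 1122 and 1067 with AcLDL (log2 1.06 ± 0.10, limma adjusted p = 0.00372). The mice lay close together within each group, and without the block the adjusted p was 0.0939. In LXR-positive cells its log2 fold change was 0.33 (limma adjusted p = 0.147), and the difference between genotypes did not pass (limma adjusted p = 0.592). Dot1l, the histone H3 lysine methyltransferase, went from 696, 906 and 588 to 1313, 1638 and 969 (log2 0.83 ± 0.12, limma adjusted p = 0.0437; 0.407 without the block). Slc27a1, a fatty acid transporter, went from 1177, 1483 and 1179 to 2069, 2262 and 1924 (log2 0.71 ± 0.097, limma adjusted p = 0.0325; 0.113 without the block). The calls of Dot1l and Slc27a1 did not hold when any 1 of the DKO mice was left out (adjusted p from 0.14 to 0.33).

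**Figure D4:**
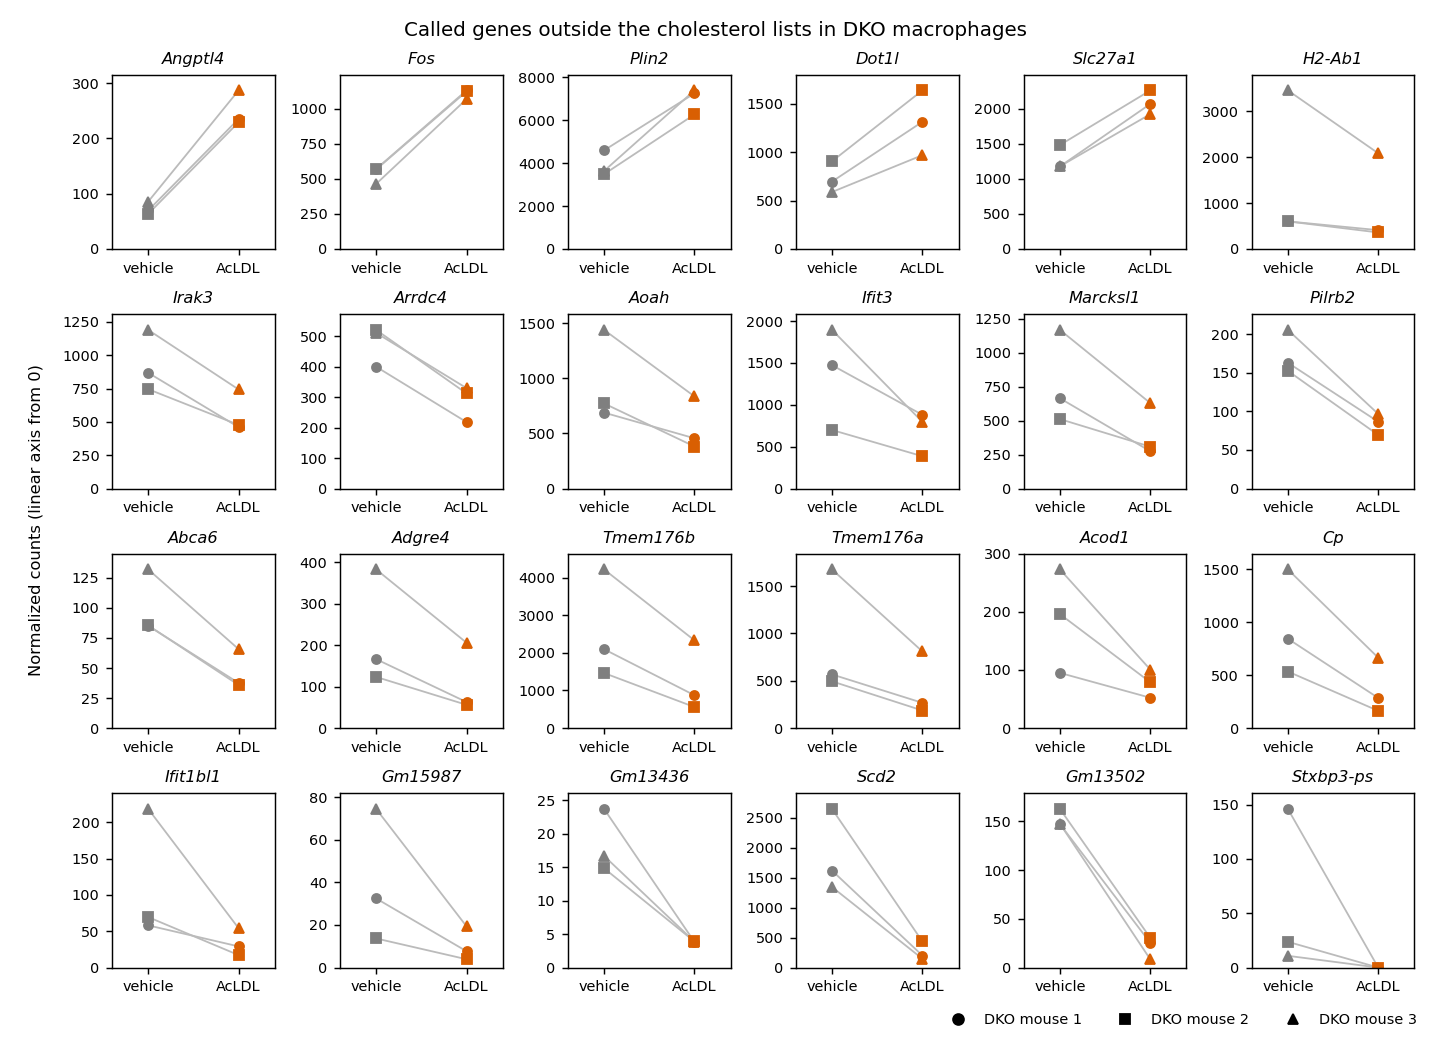
Normalized counts (linear axis from 0) of the 24 called genes outside the cholesterol lists in DKO macrophages, with vehicle (grey) and AcLDL (orange), ordered from the highest to the lowest log2 fold change; lines join the libraries of 1 mouse. In many of the lower genes, such as H2-Ab1 and Tmem176a, mouse 3 (triangles) is above the other mice in both groups.

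Outside the cholesterol lists 19 genes fell, and for most of them the paired design carried the call. Of these, 15 were not called by limma without the block (adjusted p from 0.055 to 0.92), and in 14 of the 15 mouse 3 had the highest vehicle value (Arrdc4 was the exception). Mouse 3 also had the highest AcLDL value in 14 of the 15, the exception being Ifit3. H2-Ab1, an MHC class II chain, was at 601, 601 and 3455 with vehicle and 410.4, 360.0 and 2085 with AcLDL. Each mouse was lower with AcLDL, but mouse 3 exceeded the other 2 several-fold in both groups. The paired log2 fold change was -0.67 ± 0.088 (limma adjusted p = 0.0277; 0.924 without the block). Tmem176b and Tmem176a, neighbouring genes of membrane proteins found in antigen-presenting cells, had the same layout. Tmem176b went from 2096, 1462 and 4217 to 871, 559 and 2331 (log2 -1.17 ± 0.13, limma adjusted p = 0.0115; 0.728 without the block). Tmem176a went from 567, 494 and 1677 to 266, 185 and 809.8 (log2 -1.18 ± 0.16, limma adjusted p = 0.0304; 0.768 without the block). The 2 genes share 81 exon bases on opposite strands. Stromal markers were lowest in mouse 3, as given above, and their part in these results was not tested.

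Several of these fallen genes are expressed by activated macrophages. Acod1, which makes itaconate, went from 94.8, 196 and 273 to 52.1, 78.7 and 100.5 (log2 -1.20 ± 0.18, limma adjusted p = 0.0437; 0.768 without the block). Ifit3, an interferon-stimulated gene, went from 1473, 699 and 1895 to 879.9, 386 and 796 (log2 -0.95 ± 0.14, limma adjusted p = 0.041; 0.711 without the block). Each mouse was lower with AcLDL, and the groups overlapped in both genes. Cp, ceruloplasmin, went from 843, 534 and 1497 to 284, 162 and 664 (log2 -1.48 ± 0.22, limma adjusted p = 0.0422; 0.663 without the block). Adgre4, an adhesion G protein-coupled receptor of myeloid cells, went from 166, 123 and 383 to 62.8, 56.1 and 206 (log2 -1.14 ± 0.15, limma adjusted p = 0.0304; 0.761 without the block). Ifit1bl1 and Gm15987, annotated as an antisense gene, had log2 fold changes of -1.64 and -1.81 (limma adjusted p = 0.042 and 0.0356; 0.63 and 0.618 without the block). The other 6 fallen genes, Abca6, Pilrb2, Marcksl1, Aoah, Arrdc4 and Irak3, fall outside the naming rule and were named after their values were seen. Their log2 fold changes ran from -1.13 (Abca6) to -0.74 (Irak3), and limma and edgeR called none of them without the block. DESeq2 without the block called Abca6, Pilrb2 and Arrdc4. Irak3 dampens Toll-like receptor signalling and Aoah inactivates lipopolysaccharide. For all of these but Tmem176b and Ifit1bl1, leaving out any 1 DKO mouse ended the call; Tmem176b kept it without mouse 3 (adjusted p = 0.021) and Ifit1bl1 without mouse 1 (adjusted p = 0.031). Ifit3 shares 61.8% of its 31-base words with Ifit3b, so reads of that pair may have been split by the counting.

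The remaining 3 are pseudogenes that share sequence with expressed genes. Stxbp3-ps was at 146, 23.7 and 10.8 normalized counts with vehicle and listed at 0 in all 3 DKO AcLDL libraries, at least 27.5-fold lower against a floor of 3 reads per library. It was at 139, 101 and 186 in the LXR-positive AcLDL libraries. In DKO vehicle libraries, mouse 1 held most of its counts. Against the same vehicle libraries, its log2 fold changes in DKO were -4.52 with GW3965 and -3.20 with KLA (limma adjusted p = 0.362 and 0.0885). Its fall is thus not particular to AcLDL in size, and its source was not tested. Of its 31-base words, 80.2% occur in Stxbp3. Gm13502 went from 147, 163 and 147 to 25.3, 30.4 and 8.38, and 100% of its words occur in Idi1. Its reads therefore cannot be told apart from those of Idi1, which fell too. Gm13436 went from 23.7, 14.8 and 16.7 to 3.83, 3.9 and 3.87, and 82.1% of its words occur in Rpl18. These 3 values are uncertain for that reason.

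Interferon-stimulated genes were numerically lower as a list. Of 30 tested members, Ifit3 fell, all 30 had a log2 fold change below 0 (49.9% of all genes did) and the median was -0.48. At an unadjusted p under 0.05 there were 17 of the 30, against 10.5% of all genes. In 3 of the 30 the AcLDL libraries lay below all vehicle libraries, against 5.67% of all genes. Ifit2 was at 2467, 1493 and 3569 with vehicle and 1625, 670.1 and 1630.5 with AcLDL (log2 -0.96 ± 0.17, limma adjusted p = 0.0753). The chemokine Cxcl10 was at 84.2, 107 and 320.1 and 78.1, 21.0 and 94.7 (log2 -1.38 ± 0.35, limma adjusted p = 0.189). For both genes mouse 3 had the highest vehicle count. In LXR-positive cells 14 of the 30 fell (median -0.98), against 1.00% of all genes tested. Ifit3 went there from 1834, 1855 and 1653 to 563, 635 and 383. The response was numerically weaker in DKO for all 30, and none of these differences passed (smallest limma adjusted p = 0.86). The members of such a list are not independent of each other. DESeq2 with the block called 8 of the 30 lower in DKO (184 of all genes), and edgeR 1 (33 of all genes).

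All 8 tested MHC class II genes were below 0 (median -0.39) and limma and edgeR with the block called H2-Ab1 alone, while DESeq2 with the block called 3 lower. In limma 5 of the 8 had an unadjusted p under 0.05. Cd74, the invariant chain, was at 2476, 2705 and 16018 with vehicle and 1816, 1839.6 and 9698 with AcLDL (log2 -0.58 ± 0.11, limma adjusted p = 0.0945). As for H2-Ab1, mouse 3 was far above the others in both groups. Among 19 tested inflammatory mediators none was called by limma, edgeR or DESeq2 with the block, 5 had an unadjusted p under 0.05, 15 were below 0 and the median was -0.11.

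Of 25 tested cell cycle genes none was called by limma or edgeR and 4 were higher by DESeq2 with the block. In limma 15 had an unadjusted p under 0.05, 24 were above 0 and the median was 0.44. Pcna, the replication clamp, was at 2275, 2643 and 1502 with vehicle and 4052, 3591 and 2806 with AcLDL (log2 0.73 ± 0.12, limma adjusted p = 0.0631). Its groups did not overlap, and mouse 3 was lowest in both. Mki67 had a log2 fold change of 0.27 ± 0.18 (limma adjusted p = 0.681). In LXR-positive cells 5 of the 25 rose, Pcna among them (log2 0.95, limma adjusted p = 0.0109), with a median of 0.63. Of all genes tested, 0.537% rose there.

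Genes that take up and process modified lipoprotein were not called by limma or edgeR in DKO. Of 13 scavenger receptor genes 5 were above 0 and 8 below (median -0.06), 7 had an unadjusted p under 0.05, and DESeq2 with the block called 2 higher and 1 lower. Msr1, the class A receptor that binds AcLDL, was at 2144, 2279.5 and 2116 with vehicle and 2614, 3393 and 2604 with AcLDL (log2 0.39 ± 0.090, limma adjusted p = 0.166). Its groups did not overlap. Marco, another class A receptor, was low in DKO, at 4.84, 7.71 and 31.6 with vehicle and 0, 0.779 and 9.66 with AcLDL. Its log2 fold change of -2.15 ± 0.33 did not pass (limma adjusted p = 0.0544). In LXR-positive cells Marco went from 65.4, 84.1 and 194 to 7.97, 14.8 and 23.4 (log2 -2.77, limma adjusted p = 0.0103). Soat1, which esterifies cholesterol, had -0.05 ± 0.11 (limma adjusted p = 0.94) and Npc1, which exports cholesterol from lysosomes, 0.14 ± 0.075 (limma adjusted p = 0.582). The 17 genes of esterification, lysosomal exit and oxysterols had a median of 0.13 (2 with an unadjusted p under 0.05, 1 higher by DESeq2) and the 21 lysosomal genes 0.02 (4 and 2). Ctsl had the highest log2 fold change of the lysosomal list, 0.94, which did not pass (limma adjusted p = 0.172). By limma and edgeR no gene was called among NRF2 targets (16 tested, median -0.06), the unfolded protein and ATF4 response (17, 0.06), glycolysis and hypoxia (20, 0.17), efferocytosis (14, 0.03) or alternative activation (10, -0.25). These lists held 2, 3, 6, 3 and 1 genes with an unadjusted p under 0.05, and DESeq2 with the block called 0, 1, 3, 1 and 0. Hmox1, a NRF2 target, had a log2 fold change of 0.05 and Ddit3, the stress factor CHOP, of 0.19. No marker of the 8 cell type lists was called either, and macrophage markers had a median of -0.21, with 7 of 12 at an unadjusted p under 0.05.

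Most of the genes called in DKO moved alike in LXR-positive macrophages, where AcLDL called 247 genes (1.54%), 86 higher and 161 lower. That count was 15, 445 and 23 without LXR-positive mouse 1, 2 or 3. Of the 38 DKO genes, 27 were called there too, which is 71.1% of the DKO calls and 10.9% of the LXR-positive calls. Of these 27, 26 went the same way and Scd2 the opposite way. The 11 not called in LXR-positive cells were Cyp51, Sc5d, Mvd, Fos, Dot1l, Slc27a1, Pilrb2, Gm15987, Gm13502, Gm13436 and Stxbp3-ps, and none of them passed the test of the difference between genotypes. That test called 4 of 16026 genes (0.0250%; 810 genes, 5.05%, at an unadjusted p under 0.05). The response was lower in DKO for 3 of them (0.0187%), Scd2, Abcg1 and Abca1, described above, and higher for 1 (0.00624%), Pole2. Leaving out a DKO mouse left 1 of these calls, and Scd2 passed each time. edgeR with the block called Scd2 alone of the 4. Pole2, a subunit of DNA polymerase epsilon, was at 34.3, 55.2 and 26.1 with vehicle and 76.6, 59.2 and 45.1 with AcLDL in DKO (log2 0.67 ± 0.32, limma adjusted p = 0.532). In LXR-positive cells it was at 26.2, 36.6 and 36.7 with vehicle and listed at 0 in all 3 AcLDL libraries, at least 7.3-fold lower against a floor of 3 reads per library. Its counts were low in every library.

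**Figure D5:**
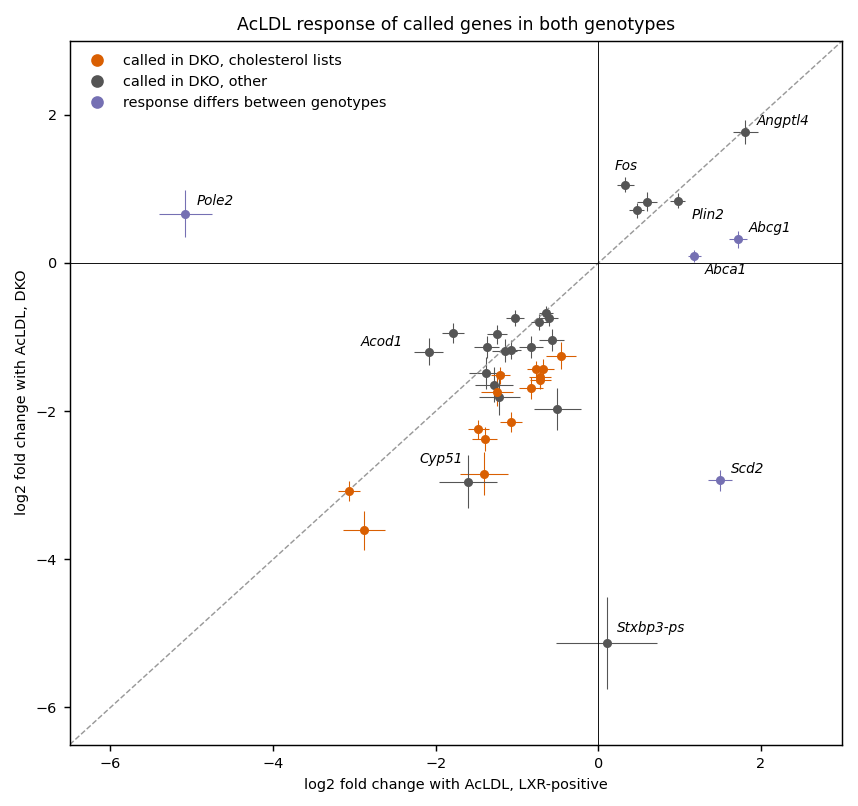
The log2 fold change with AcLDL in LXR-positive (horizontal) and DKO macrophages (vertical) for the 38 genes called in DKO and the 4 whose response differed between genotypes (Scd2 is in both sets); bars are standard errors and the dashed line marks equal responses. Cholesterol genes (orange) lie on or below the dashed line, Scd2 lies at -2.93 in DKO and 1.50 in LXR-positive cells, and Abca1 and Abcg1 lie near 0 on the vertical axis.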

How the data were processed

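RNA was sequenced as single-end 50 bp reads, per the series' design text, from stranded total RNA libraries made from 500 ng RNA of individual mice, per the labels' protocols. The submitters' processing notes name kallisto, DESeq2 and GRCm38. The sources used here do not give versions, annotation or strand setting. The authors deposited a signal, normalized counts per gene: whole counts divided by 1 size factor per library (100% of values gave whole reads within 0.01 read). kallisto estimates counts, so whole numbers may be rounded estimates. The authors' deposited log2 fold changes and p-values of the genotype difference were used only where named, and their deposited score (a test statistic) was not used. Rows named 47372 genes, 12616 at 0 in all 24 libraries.

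limma 3.58.1 (R 4.3.3) was fitted to log2(value + 1), which understates changes of low genes, over 12 libraries, with the mouse (genotype and replicate number, 6 levels) as block, 1 AcLDL effect per genotype and the difference of the effects as a contrast. Benjamini-Hochberg adjustment ran over 16026 genes, and calls required an adjusted p under 0.05. Errors are standard errors unless stated. The numbers pair libraries because the design text gives 6 mice with 4 treatments each. Deviations of same-numbered vehicle and AcLDL libraries correlated over 10674 genes at 0.16, 0.385 and 0.52 in DKO and 0.222, 0.28 and 0.341 in LXR-positive. Differently numbered libraries correlated at -0.453 to 0.167 in DKO and at -0.224 to -0.067 in LXR-positive. The value of 0.167 is that of DKO AcLDL 1 with DKO Veh 2, so the correlations do not single out the pair of DKO mouse 1. The 3 mice per genotype are the replicates. GW3965 and KLA values come from the same model with their own libraries. edgeR 4.0.16 and DESeq2 1.42.0 were run on the recovered reads as alternatives, which also covered scaling, filter, pseudocount, samples in the fit and leaving out each mouse. Thinning all libraries to 8280899 reads was chosen after the depths were seen. The code was tested on simulated data.

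Values of some single genes are not reported here. Members and gene lists were chosen with earlier results of these data known. Named genes were the called list members, up to 10 further called genes in each direction with the largest fold change, genes called between genotypes, a fixed set of sterol, lipid and stress genes, the 2 list members with the lowest p in lists without a call, and the most abundant marker of each cell type. Shared 31-base words and opposite-strand overlaps come from GENCODE M21 (46734 gene identifiers matched), and promoters from RefSeq. Counting error is smallest in the deeper vehicle libraries.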

Additional observations from a re-analysis of the deposited data

Results flagged for a closer look

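The response to AcLDL differed between the genotypes for 4 genes by the interaction contrast in limma. For Scd2 the difference, DKO minus LXR-positive, was -4.43 on the log2 scale (adjusted p = 0.000105), with a fall in all 3 DKO mice and a rise in all 3 LXR-positive mice. For Abcg1 it was -1.40 (adjusted p = 0.0453) and for Abca1 -1.08 (adjusted p = 0.0381), both higher with AcLDL in all 3 LXR-positive mice. For Pole2 it was 5.74 (adjusted p = 0.0056), which rests on a gene listed at 0 in the 3 LXR-positive AcLDL libraries and depends on the pseudocount. The authors' deposited test of this difference passed 11 genes, 3 of these 4 among them.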

How the results depend on the processing

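Cholesterol genes called lower in DKO numbered 13 to 17 under the other settings and 10 to 14 when 1 mouse was left out. The count of all genes called in DKO was 38. It was 27 with only the 6 DKO libraries in the fit, 77 with all 24 libraries and 287 by DESeq2 with the block. It was 22, 15 and 29 without DKO mouse 1, 2 or 3 and 17, 87 and 25 without LXR-positive mouse 1, 2 or 3 (15 to 87). In LXR-positive cells the count of 247 was 131 without a filter, 157 by edgeR and 531 by DESeq2 with the block, and 128, 128 and 127 without DKO mouse 1, 2 or 3 and 15, 445 and 23 without LXR-positive mouse 1, 2 or 3 (15 to 445). The count of 4 genes whose response differed was 2 without a filter, 2 with quantile normalization, 1 by edgeR and 21 by DESeq2 with the block, 13 by DESeq2 without it, and 1 to 3 when 1 mouse was left out. The cause was not tested.

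Without the replicate block, that is, without pairing by mouse, the DKO count was 20 by limma, 18 by edgeR and 82 by DESeq2. The LXR-positive count was 36 by limma and 20 by edgeR, and the difference count 4 by limma.

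4 uncalled genes turned direction: Atp6v0d2 (-0.105 without DKO mouse 3), S100a9 (-0.095 without DKO mouse 3), Soat1 (0.011 with quantile normalization, 0.107 without DKO mouse 1) and Col1a1 (0.160 by edgeR and 0.156 by DESeq2 without the block, 0.102 without DKO mouse 3, 0.013 with thinned reads). Of the single-gene values in DKO, 1328 kept direction and side of the threshold, 142 lost the call and 30 gained it. For the 4 genotype differences 48 values kept both and 24 lost the call. Thinned reads gave 40 calls in DKO.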
